A study of Mus musculus with 103 samples.

Results

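Gm6793, Dennd4a and Kazn are 3 of the 51456 gene symbols read in the aortic arch of ovariectomized mice, and 3 of the 14637 genes that reached a value of 1 in at least 5 libraries. They were chosen by measured values, namely how they moved under Scl-Ab, an antibody that neutralizes sclerostin. Gm6793 and Dennd4a were the genes whose Scl-Ab difference passed the threshold on day113, and Kazn was chosen because its Scl-Ab difference was unlike in the 2 genotypes over the 3 days. Every difference that uses the day113 values of Gm6793 or Dennd4a, and every difference of Kazn, is therefore given below as a description, with no p-value. Tests are reported for Gm6793 and Dennd4a on day22 and day57, and for other genes.

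All mice were ovariectomized C57BL/6 females, operated on at 7 to 8 weeks of age and fed a diet with 42% of calories from fat. The treated animals received the antibody r13C7, a form of romosozumab carrying rat frameworks and constant regions, at 10 mg/kg under the skin once a week, and the controls received the acetate, sucrose and polysorbate vehicle. ApoE-KO mice lack apolipoprotein E, the ligand through which the liver clears remnant lipoproteins, and develop atherosclerotic plaque in the arch. Wild-type (WT) mice had the same diet and surgery, so that no group was intact or on a low-fat diet. Tissue was taken on the days labelled day22, day57 and day113, after 3, 8 or 16 weeks of dosing, at 12 to 13, 17 to 18 and 25 to 26 weeks of age. On day22 there were 9 ApoE-KO Scl-Ab, 8 ApoE-KO vehicle, 6 WT Scl-Ab and 8 WT vehicle libraries. There were 10, 10, 9 and 5 libraries of these groups, in that order, on day57, and 10, 10, 8 and 10 on day113, with 1 animal per library. The arch was perfused and scraped of adventitial fat before poly(A) RNA was sequenced.

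The deposited values are of the fpkm type (fragments per kilobase of transcript, with a scaling the labels do not define), and log2 differences are differences of log2(value + 1), given ± SE. Tests are two-sided in limma, and a gene passed where its p, adjusted by Benjamini and Hochberg's method over all 14637 genes, was below 0.05. Apoe, which checks the genotype labels, had at most 18.2 in the ApoE-KO libraries and at least 219.9 in the WT libraries. The 5 macrophage markers (Cd68 and others) were all higher in ApoE-KO arches on each day, and all 5 smooth muscle markers were lower in ApoE-KO arches on day113. All 5 brown adipocyte markers were higher with Scl-Ab in WT arches on day22, where their summed value ran from 356 to 4760 with Scl-Ab and from 87.1 to 2688 with vehicle. Sequencing was done in 3 batches that the labels do not tie to libraries, so the day of sampling, age and batch cannot be told apart. In such bulk tissue, fewer cells of a type and less RNA per cell cannot be told apart either.

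The 3 genes have unlike products. Gm6793 is a retrocopy, a DNA copy of the spliced messenger RNA of Hnrnpa3 put back into the genome. Hnrnpa3 encodes hnRNP A3, an abundant nuclear protein with RNA recognition motifs and a glycine-rich tail that binds nascent transcripts during splicing and export. Dennd4a encodes a DENN domain protein, a guanine nucleotide exchange factor that loads GTP onto Rab10, a small GTPase that moves exocytic vesicles and GLUT4 vesicles to the plasma membrane. Kazn encodes kazrin, a coiled-coil protein of cell junctions and endosomal traffic, first known from keratinocytes as a binder of periplakin.

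Gm6793 (ENSMUSG00000092086.1) lies on the minus strand of chromosome 8 at chr8:112013433-112015036 in GRCm38, as a single exon of 1604 bases inside an intron of Terf2ip, which is read from the other strand and encodes a telomere protein. GENCODE M21 lists it as protein coding and RefSeq as a transcribed pseudogene. Against the spliced Hnrnpa3 transcript it aligned over 1476 columns with 7 mismatches, 19 gap positions and 98.2% identity. The same counts held against Gm5641, another retrocopy of Hnrnpa3 on chromosome 3 (chr3:54481438-54482925, plus strand), listed by GENCODE M21 as a transcribed processed pseudogene. The 150 bases of its coding part with the most differences are shown here, because differences of this kind could assign a read to 1 of the copies. The stretch covers bases 527 to 676 of the Gm6793 transcript (chr8:112014361-112014510, minus strand) and the aligned bases of the other 2 transcripts, 5′ to 3′, from GENCODE M21. Capitals mark the differing letters, among them a run of 18 bases of the glycine-rich repeat that Gm6793 lacks.
Gm6793: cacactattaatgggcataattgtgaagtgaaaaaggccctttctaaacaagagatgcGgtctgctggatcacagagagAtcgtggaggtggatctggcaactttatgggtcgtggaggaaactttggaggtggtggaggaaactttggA
Hnrnpa3: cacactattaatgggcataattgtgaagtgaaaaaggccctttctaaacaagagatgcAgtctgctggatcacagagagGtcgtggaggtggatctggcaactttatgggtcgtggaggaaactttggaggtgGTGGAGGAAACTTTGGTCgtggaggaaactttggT
Gm5641: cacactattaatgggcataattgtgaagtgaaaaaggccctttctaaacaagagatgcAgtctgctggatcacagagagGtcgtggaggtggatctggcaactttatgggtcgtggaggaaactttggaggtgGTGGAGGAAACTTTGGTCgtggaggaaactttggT
Both alignments end at base 1457 of the 1604 of Gm6793, so the end of its transcript lies outside them. Up to that base, and outside such positions, the letters of Gm6793 are largely shared. Of its 1555 windows of 50 bases, 80.1% occur exactly in a transcript of another gene, and of its 1505 windows of 100 bases 68% do. In all, 32 other annotated genes matched its transcript at 90% identity or more over at least 1000 bases, 30 of them pseudogenes, and of all these copies Gm6793, Hnrnpa3 and Gm5641 were the ones tested here. How reads that match several copies were counted is not given in the sources used here, so the value of Gm6793 is uncertain and may hold reads of other copies. For Gm5641, 100% of the windows of 50 and of 100 bases occur in a transcript of another gene. Its value therefore cannot be told from reads of other copies. Neither Dennd4a nor Kazn had such overlap. No 50-base window of the longest Dennd4a transcript occurs in another gene, and 1.52% of those of Kazn do, with 0 at 100 bases.

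Group means of Gm6793 ran from 1.15 to 1.73 on day22 and day57, and on day113 they stood highest in vehicle-treated mice. On day113 the WT arches had a lowest, median and highest value of 1.57, 1.92 and 2.44 with Scl-Ab, against 2.73, 3.61 and 4.10 with vehicle. Every WT Scl-Ab library was below every WT vehicle library, a separation that 0.0205% of the genes tested had. The ApoE-KO arches had 0.939, 1.50 and 2.48 with Scl-Ab, against 2.05, 2.83 and 3.55 with vehicle. Here the ranges overlapped, with 7 of the 10 Scl-Ab libraries below the lowest vehicle library. The mean with Scl-Ab was 0.583 times that with vehicle in ApoE-KO arches, a log2 difference of -0.54 ± 0.11, and 0.562 times in WT arches, a log2 difference of -0.60 ± 0.12. These differences chose the gene. It was the 1 gene past the threshold in WT arches on day113 (0.00683% of those tested) and 1 of 2 in ApoE-KO arches (0.0137%), the other being Dennd4a. The WT difference stayed past the threshold in 7 of 11 other settings and in 9 of 18 fits without 1 library, and the ApoE-KO difference in 4 of 11 and in 3 of 20. The genes next in order by p, which missed the threshold, were Txndc11 (-0.26) and Rps23-ps2 (-1.12) in WT arches and Appbp2 (-0.26) and Cacnb2 (-0.56) in ApoE-KO arches.

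**Figure D1:**
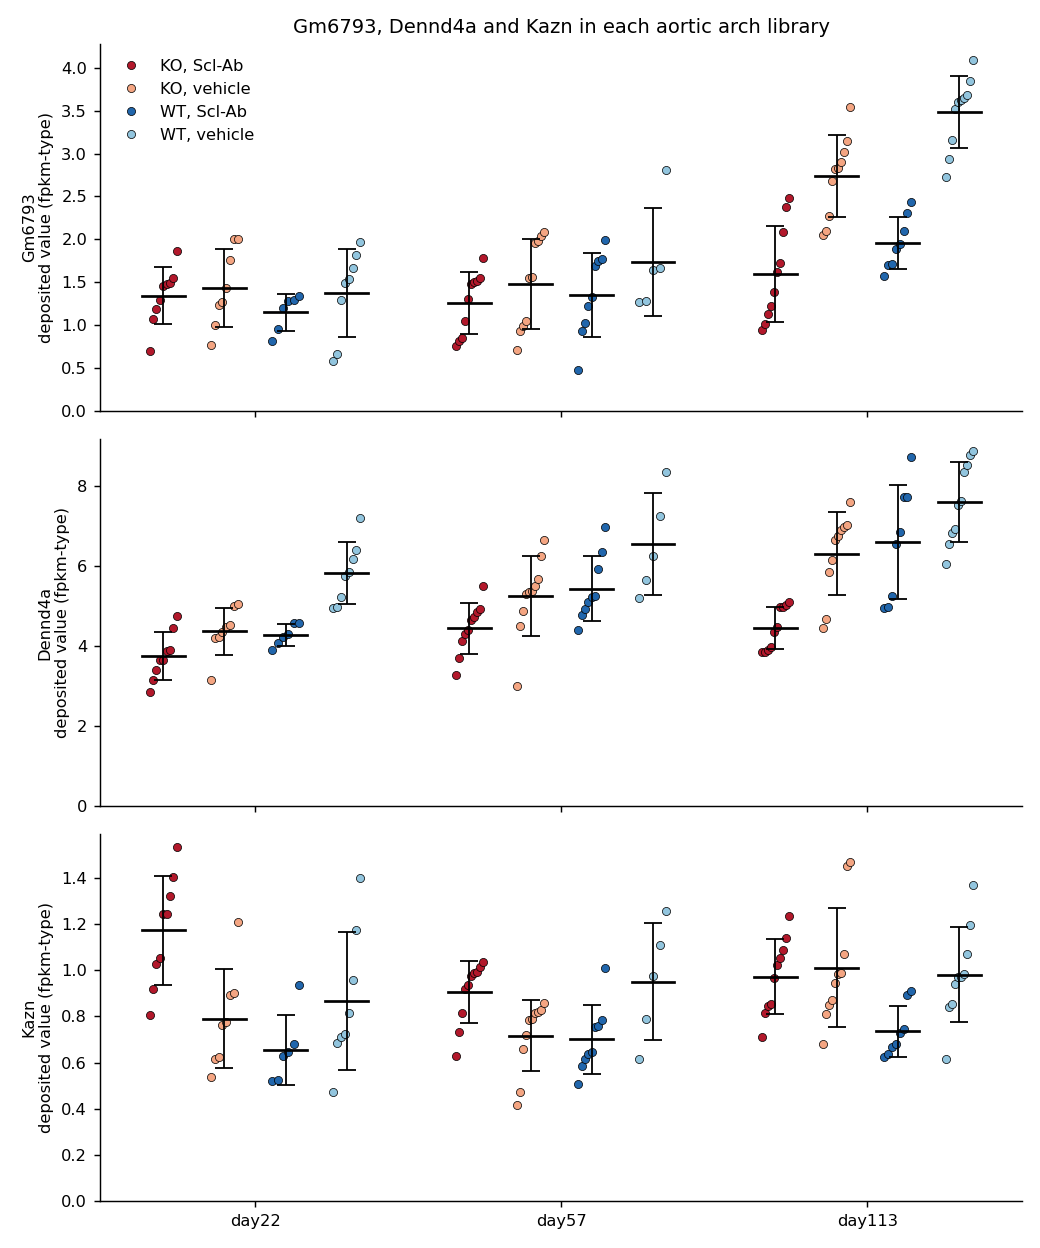
Deposited value (fpkm type, linear axes) of Gm6793, Dennd4a and Kazn in each library by group and day, Scl-Ab left of vehicle within each genotype; points are libraries and bars are group means ± SD. Gm6793 stands highest in the vehicle groups of day113, Dennd4a is lower with Scl-Ab than vehicle in the mean of each genotype and day, and Kazn is higher with Scl-Ab in ApoE-KO arches of day22 and day57 but lower in WT arches.

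On day22 and day57, which did not choose the gene, no Scl-Ab difference of Gm6793 passed. On day22 the mean was 1.35 ± 0.33 with Scl-Ab and 1.44 ± 0.46 with vehicle in ApoE-KO arches, and 1.15 ± 0.21 with Scl-Ab and 1.38 ± 0.51 with vehicle in WT arches (SD, n = 9, 8, 6 and 8). The log2 differences were -0.05 ± 0.12 (limma adjusted p = 0.844) in ApoE-KO arches and -0.12 ± 0.14 (adjusted p = 0.567) in WT arches, the second with a 95% interval of -0.39 to 0.15. On day57 the ApoE-KO means were 1.26 ± 0.36 with Scl-Ab and 1.48 ± 0.52 with vehicle (n = 10 each), a difference of -0.12 ± 0.11 (limma adjusted p = 0.608). The WT mean on day57 was 1.35 ± 0.49 with Scl-Ab (n = 9), and the 5 WT vehicle libraries had 2.80, 1.27, 1.65, 1.28 and 1.67. That difference was -0.22 ± 0.14 (limma adjusted p = 0.653), with an interval of -0.50 to 0.06. Of all genes, 9.15% passed in ApoE-KO and 26.9% in WT arches on day22, 1.81% (0.704% higher with Scl-Ab) in ApoE-KO arches on day57 and 0% in WT arches on day57, where 1497 genes had an unadjusted p under 0.05. The WT intervals of both earlier days overlapped the described WT interval of day113, -0.84 to -0.36, whose value chose the gene. The difference between days was not itself tested.

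The genotype differences of Gm6793 were small beside the difference between days. ApoE-KO against WT arches, averaged over both treatments, differed by 0.08 ± 0.09 on day22 (limma adjusted p = 0.552) and by -0.09 ± 0.09 on day57 (adjusted p = 0.442). On day113 the ApoE-KO arches were lower by a described difference of -0.24 ± 0.08. The Scl-Ab difference did not differ detectably between genotypes on day22 (ApoE-KO minus WT 0.07, limma adjusted p = 0.819) or day57 (0.10, adjusted p = 0.926), and was described at 0.06 on day113. The contrast of day113 against day22, over all 4 groups of a day, was described at 0.54 ± 0.06, and 56.5% of all genes passed in it. That of day57 against day22 gave 0.07 ± 0.06 (limma adjusted p = 0.392; 44.1% of all genes passed). In the order of the 12 group means, WT vehicle of day113 (3.48 ± 0.42) and ApoE-KO vehicle of day113 (2.74 ± 0.48) each stood above the next group by more than the larger SD of the pair. The other neighbours in the order did not.

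Neither near-identical gene passed for Scl-Ab on day113; both were looked at after the values of Gm6793 were known. Hnrnpa3 is far more abundant, with day113 means of 93.3 ± 13.2 and 96.5 ± 7.9 in ApoE-KO Scl-Ab and vehicle arches, and of 99.3 ± 7.3 and 107.5 ± 12.9 in WT Scl-Ab and vehicle arches. Its Scl-Ab differences on that day were -0.06 in ApoE-KO arches (limma adjusted p = 0.768) and -0.11 in WT arches (adjusted p = 1.0). Hnrnpa3 was lower with Scl-Ab in WT arches on day22, at -0.47 ± 0.11 (limma adjusted p = 0.000837), a contrast in which Gm6793 did not pass. Over both genotypes and all days Hnrnpa3 was also lower with Scl-Ab, at -0.17 ± 0.04 (limma adjusted p = 0.000371). In that contrast 16.7% of all genes passed and were lower, and Gm6793 was described at -0.28 ± 0.05. The contrast of day113 against day22 gave -0.07 for Hnrnpa3 (limma adjusted p = 0.225). Gm5641, with group means of 38.5 to 70.5, was higher on day113 than day22 by 0.46 ± 0.10 (limma adjusted p = 5.93e-05). Its Scl-Ab differences on day113 were -0.15 in ApoE-KO (limma adjusted p = 0.692) and 0.29 in WT arches (adjusted p = 1.0). Of the summed value of the 3 copies, Gm6793 made up 1.07% in ApoE-KO Scl-Ab and 1.72% in ApoE-KO vehicle arches on day113, and 1.19% in WT Scl-Ab and 2.08% in WT vehicle arches. On the earlier days that share was 0.827% to 0.962% in the group means. The part of reads from the other copies in the values of Gm6793 and Gm5641 was not tested.

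**Figure D2:**
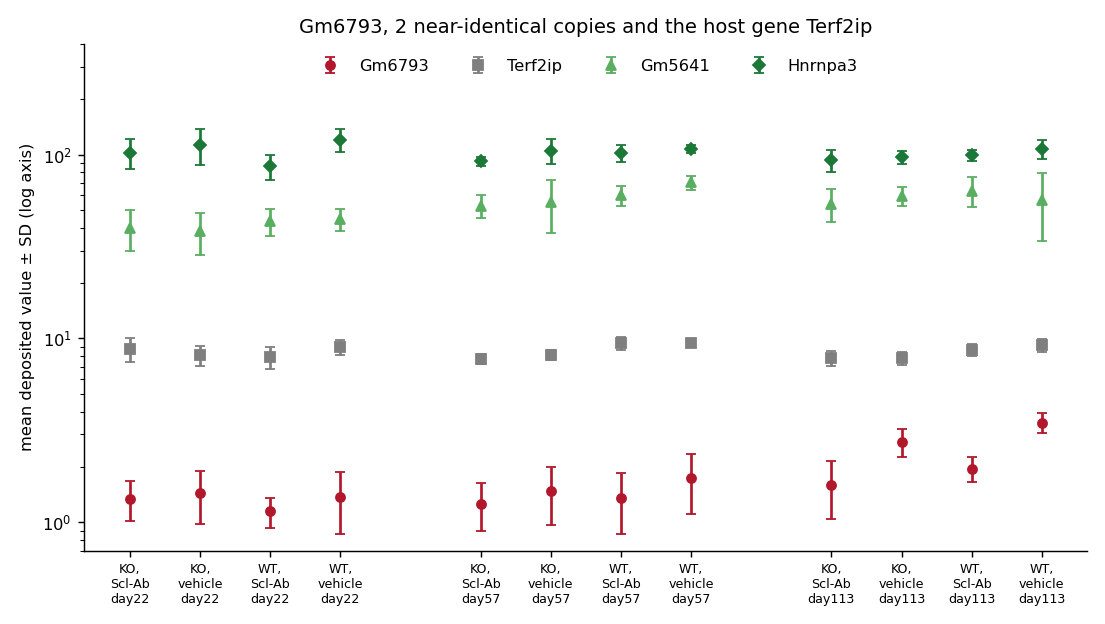
Group means ± SD of Gm6793, Terf2ip, Gm5641 and Hnrnpa3 (deposited values, fpkm type, log axis) by day, genotype and treatment, Scl-Ab left of vehicle. On day113 Gm6793 is 1.60 with Scl-Ab and 2.74 with vehicle in ApoE-KO arches, and Hnrnpa3 is 93.3 and 96.5 in the same groups.

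Terf2ip, the host gene on the opposite strand, had group means of 7.73 to 9.41. No exon base of its main transcript lies in Gm6793, and part of a short single-exon transcript does. Use of strand in counting is not given in the sources used here, so reads of that overlap cannot be assigned. Terf2ip did not pass for Scl-Ab on day113, with differences of -0.00 in ApoE-KO and -0.08 in WT arches. It was lower in ApoE-KO than WT arches, at -0.22 on day57 (limma adjusted p = 2.43e-05) and at -0.18 on day113 (adjusted p = 0.000123). Of the 5 tested genes within 100 kb of Gm6793 (Tmem231, Gabarapl2, Adat1, Kars and Terf2ip), 0 passed for Scl-Ab on day113. In those contrasts 0.0137% of all genes passed in ApoE-KO and 0.00683% in WT arches, so this count says little about the neighbours.

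The genes whose pattern was most like that of Gm6793 depended on what was compared. Within groups, after subtraction of the group means, the highest Pearson r over all libraries were those of Otub1 (0.50), Capns1 (0.50), Dhps (0.49), Tonsl (0.49) and Polr2d (0.48). The lowest were AU040320 (-0.48), Gse1 (-0.45) and Xpo7 (-0.45). Hnrnpa3 had 0.39, Terf2ip 0.30 and Gm5641 -0.10. Over the 12 group means the most alike were Gm15684 (0.94), Gm6204 (0.94), Gm7027 (0.93), Npas2 (0.92) and Gm4202 (0.91). Npas2 is a transcription factor of the circadian clock, and its r within groups was 0.04. Of the 50 genes most alike over group means, 29 were pseudogenes, against 2 of the 50 most alike within groups. Libraries share day and batch within a group, so these r are descriptions and carry no test.

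Beside these, the 388 tested processed pseudogenes were counted, a list chosen after the values were seen. On day113 against day22, 160 of them were higher and 26 lower, with a median log2 difference of 0.15, against 0.00 over all genes tested, of which 28.2% were higher and 28.3% lower. On day57 against day22, 30 were higher and 72 lower, against 3375 and 3080 of the 14637 genes tested, while Gm6793 did not pass in that contrast. For Scl-Ab on day113 their median was -0.09 in ApoE-KO and -0.11 in WT arches, and 0 of the list passed in either. Of all genes, 0.0137% and 0.00683% passed there. Medians over all genes are not given beside these 2, so a move particular to the list cannot be read from them. The list thus moved the same way as Gm6793 on day113 against day22, and its part in that difference was not tested.

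Dennd4a (ENSMUSG00000053641.9, chr9:64811340-64919667, plus strand, GRCm38) has 9 annotated transcripts, the longest of 8645 bases. Its mean with Scl-Ab was below that with vehicle in both genotypes on all 3 days, and its mean in ApoE-KO arches was below that in WT arches with either treatment. The test passed for Scl-Ab in WT arches on day22 and for genotype on day22 and day57. On day113 the ApoE-KO arches had a lowest, median and highest value of 3.85, 4.42 and 5.11 with Scl-Ab, against 4.45, 6.71 and 7.60 with vehicle. The ranges overlapped, with 5 of 10 Scl-Ab libraries below the lowest vehicle library. That difference, -0.41 ± 0.09 or 0.706 times the vehicle mean, chose the gene. It stayed past the threshold in 4 of 12 other settings and in 4 of 20 fits without 1 library. The WT arches on the same day had 4.95, 6.70 and 8.73 with Scl-Ab, against 6.06, 7.57 and 8.88 with vehicle, largely overlapping, with a described difference of -0.19 ± 0.09.

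On day22, which did not choose the gene, the WT arches had a lowest, median and highest Dennd4a value of 3.91, 4.26 and 4.59 with Scl-Ab, against 4.96, 5.81 and 7.21 with vehicle. Every Scl-Ab library was below every vehicle library, as was so in either direction for 1.34% of the genes tested. The log2 difference was -0.36 ± 0.10 (limma adjusted p = 0.00737), where 13.2% of all genes passed and were lower. The brown adipocyte markers moved in this contrast, and with scores of 5 carried-over tissues as covariates the difference was -0.25 (limma adjusted p = 0.130). Within groups the r of Dennd4a with Ucp1, the uncoupling protein of brown fat, was -0.39 over all libraries. In ApoE-KO arches on day22 the values were 2.84, 3.65 and 4.74 with Scl-Ab, against 3.16, 4.42 and 5.05 with vehicle. This difference of -0.18 ± 0.09 did not pass (limma adjusted p = 0.200), with an interval of -0.37 to 0.00. The 2 genotypes' differences were not told apart on day22 (ApoE-KO minus WT 0.18 ± 0.14, limma adjusted p = 0.384). On day57 the means were 4.44 ± 0.64 with Scl-Ab and 5.25 ± 1.0 with vehicle in ApoE-KO arches (n = 10 each), a difference of -0.19 ± 0.09 (limma adjusted p = 0.234). In WT arches the mean was 5.44 ± 0.82 with Scl-Ab (n = 9), and the 5 vehicle libraries had 6.25, 7.27, 5.20, 8.37 and 5.66, a difference of -0.22 ± 0.11 (limma adjusted p = 0.464).

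The genotype difference of Dennd4a had the same direction on each day. ApoE-KO minus WT, over both treatments, was -0.25 ± 0.07 on day22 (limma adjusted p = 0.0041; 12.4% of all genes passed and were lower) and -0.26 ± 0.07 on day57 (adjusted p = 0.00172; 21.3%). It was described at -0.35 ± 0.06 on day113. The macrophage and smooth muscle markers moved with genotype too, and their part in these differences was not tested. Within treatments it was -0.16 with Scl-Ab (limma adjusted p = 0.240) and -0.34 with vehicle on day22 (adjusted p = 0.00625), and -0.24 with Scl-Ab (adjusted p = 0.0288) and -0.28 with vehicle on day57 (adjusted p = 0.0644). The value with Scl-Ab on day57 lost its call without WT Scl-Ab replicate 5, 6 or 8 (adjusted p = 0.0839, 0.0529 and 0.0663). That with vehicle on day57 passed without WT vehicle replicate 3 (-0.34, adjusted p = 0.0319). Other settings moved these calls too. With Scl-Ab, the day22 difference passed in 1 of 12 settings, the carry-over scores (-0.29, limma adjusted p = 0.0243), and that of day57 in 9 of 12, failing with no filter (adjusted p = 0.0575), median-of-ratios scaling (adjusted p = 0.0809) and 2 components of the clock genes as covariates (adjusted p = 0.608). With vehicle, the day22 difference passed in 10 of 12, failing with the clock components (-0.13, limma adjusted p = 0.715) and a score of transcript length as a covariate (-0.19, adjusted p = 0.0918). That of day57 with vehicle passed in 2 of 12, the carry-over scores (-0.40, limma adjusted p = 0.00127) and quantile normalization (-0.29, adjusted p = 0.0422). The level also differed between days, by 0.21 ± 0.05 for day57 against day22 (limma adjusted p = 0.000449; 23.1% of all genes passed and were higher) and by a described 0.37 ± 0.05 for day113 against day22. In the order of the 12 group means, from 3.74 ± 0.60 in ApoE-KO Scl-Ab arches of day22 to 7.60 ± 1.0 in WT vehicle arches of day113, no 2 neighbours were apart by more than the larger SD.

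**Figure D3:**
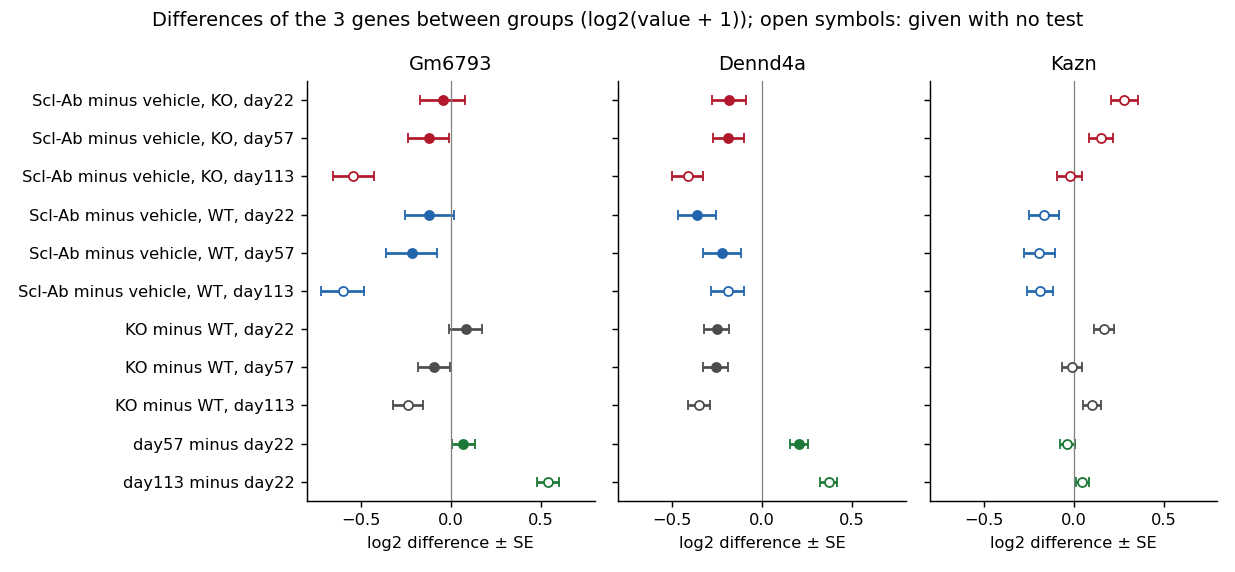
Log2 differences ± SE of Gm6793, Dennd4a and Kazn for Scl-Ab against vehicle in each genotype and day, for ApoE-KO against WT on each day, and for later days against day22; open symbols are differences given with no test because they use values that chose the gene. The Dennd4a points lie below 0 in all Scl-Ab and genotype contrasts shown, and Kazn lies above 0 for Scl-Ab in ApoE-KO arches of day22 and day57 and below 0 in WT arches on all 3 days.

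Of the 2 paralogs of Dennd4a, Dennd4b was higher and Dennd4c lower in ApoE-KO arches. Dennd4b, an exchange factor of the same subfamily, was higher in ApoE-KO arches by 0.15 on day22 (limma adjusted p = 0.0167), 0.24 on day57 (adjusted p = 6.45e-05) and 0.24 on day113 (adjusted p = 2.55e-06). Dennd4c, which acts on Rab10 in GLUT4 traffic of fat cells, was lower in ApoE-KO arches, at -0.17 on day57 (limma adjusted p = 0.00234) and -0.15 on day113 (adjusted p = 0.00165), and stood at -0.08 on day22 (adjusted p = 0.211). Rab10, the GTPase substrate, had group means of 50.3 to 59.5. It was lower with Scl-Ab on day22, at -0.20 in ApoE-KO (limma adjusted p = 0.00307) and at -0.14 in WT arches (adjusted p = 0.0334). No genotype difference of Rab10 passed on any of the 3 days.

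**Figure D4:**
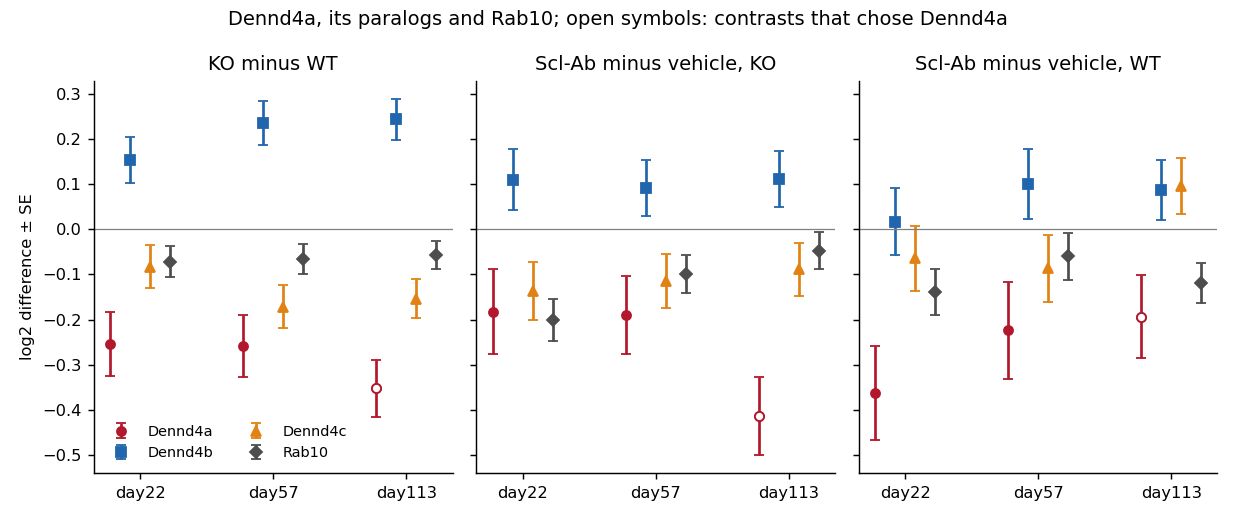
Log2 differences ± SE of Dennd4a, Dennd4b, Dennd4c and Rab10 for the genotype contrast and the Scl-Ab contrasts of each day; open symbols are differences of Dennd4a given with no test. Dennd4a and Dennd4c lie below 0 and Dennd4b above 0 for ApoE-KO against WT on each day.

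Among the 17 tested of 18 other DENN domain genes, a family of Rab exchange factors, the genotype moved members both ways. In ApoE-KO arches 4 were higher and 6 lower on day22, 4 and 6 on day57, and 6 and 9 on day113, against 13.1% higher and 12.4% lower of all genes on day22, 16.5% and 21.3% on day57 (37.8% in all) and, on day113, 3068 of the 14637 genes higher and 33.5% lower (54.4% in all). Dennd1c, an exchange factor of the connecdenn subfamily, was higher in ApoE-KO arches by 0.51, 0.76 and 0.98 on the 3 days, and Madd, an exchange factor for Rab3, by 0.28, 0.47 and 0.48. St5 (-0.69) and Dennd5a (-0.24) were among those lower in ApoE-KO arches on day113. Scl-Ab moved few of them on day22, with 2 higher and 1 lower in ApoE-KO arches (5.51% and 3.63% of all genes) and 1 and 1 in WT arches (13.7% and 13.2%). Of 18 tested genes of Rab10 and exocytosis, 1 was higher and 3 lower with Scl-Ab in ApoE-KO arches on day22, and 3 and 7 in WT arches, against the same shares of all genes. Exoc6b, a subunit of the exocyst that tethers vesicles to the membrane, was lower with Scl-Ab, at -0.33 in ApoE-KO (limma adjusted p = 0.0068) and -0.40 in WT arches (adjusted p = 0.00132). Tbc1d1, a GTPase-activating protein for Rab10, was lower with Scl-Ab in WT arches, at -0.43 (limma adjusted p = 0.00862). For genotype, 4 of the list were higher and 0 lower on day22 (13.1% and 12.4% of all genes). Myo5a, the myosin that carries Rab10 vesicles, was higher in ApoE-KO arches by 0.48, 0.99 and 1.21 on the 3 days.

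Dennd4a also moved together with genes of long transcripts. Within groups its highest r over all libraries were those of Tnpo1 (0.76), Slc8a1 (0.75), Usp9x (0.74), 9930021J03Rik (0.74) and Rlf (0.74), and the lowest those of Tmem41a (-0.71), Ypel3 (-0.64) and B3gat3 (-0.64). The median longest transcript of the 50 most alike genes was 7244 bases, against 2081 bases for the 50 least alike and 3149 bases for all genes tested. A score of each library for long against short transcripts, built after these values were seen, had r = 0.62 with Dennd4a within groups (all libraries) and 0.75 over the 12 group means. For Gm6793 the same r were -0.19 and 0.22, and for Kazn 0.15 and -0.27. The mean score on day22 was -0.17 in ApoE-KO Scl-Ab and -0.12 in ApoE-KO vehicle arches, and -0.07 in WT Scl-Ab and 0.12 in WT vehicle arches. On day113 it was -0.19 with Scl-Ab and -0.06 with vehicle in ApoE-KO arches, and 0.12 with Scl-Ab and 0.10 with vehicle in WT arches. With the score as a covariate, chosen after seeing the data, the Scl-Ab difference of Dennd4a in WT arches on day22 was -0.24 (limma adjusted p = 0.0313), and the genotype difference of day22 was -0.15 (limma adjusted p = 0.0574). The described Scl-Ab difference in ApoE-KO arches on day113 was then -0.33.

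The clock genes moved with Dennd4a as well. Over the 12 group means Dennd4a had r = 0.93 with Arntl and 0.93 with Npas2, the activating side of the clock, -0.81 with Dbp, an output factor in the opposite phase, and 0.80 with Fkbp5, a glucocorticoid-induced gene. Within groups (all libraries) these r were 0.40 (Arntl), 0.41 (Npas2), -0.33 (Dbp) and 0.26 (Fkbp5). For Gm6793 the r over group means were 0.81 (Arntl), 0.92 (Npas2) and -0.93 (Dbp), and within groups 0.02, 0.04 and 0.11. The genes most like Dennd4a over group means were Ldlrad4 (0.98), Csrnp1 (0.97), Senp1 (0.97), AC132304.3 (0.97) and Spsb1 (0.96). Of 15 clock genes, 3 were higher and 5 lower with Scl-Ab in WT arches on day22, with Arntl at -1.34 (limma adjusted p = 0.000471), where 13.7% of all genes were higher and 13.2% lower. Of 10 glucocorticoid-induced genes, 0 were higher and 9 lower in the same contrast, among them Fkbp5, at -2.44 (limma adjusted p = 0.000274). With 2 principal components of the clock genes as covariates, the Scl-Ab difference of Dennd4a in WT arches on day22 was -0.08 (limma adjusted p = 0.770). Of all genes tested, 0 passed in that contrast with these covariates, against 3937 without them, so the lost call is not particular to Dennd4a. The genotype differences of Dennd4a were then -0.09 on day22 (limma adjusted p = 0.472) and -0.12 on day57 (adjusted p = 0.174). In these 2 contrasts 1534 and 3927 genes passed with the covariates, against 3743 and 5538 without them. The described Scl-Ab difference of Dennd4a on day113 in ApoE-KO arches was -0.31. Time of day at sampling is not in the labels.

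**Figure D5:**
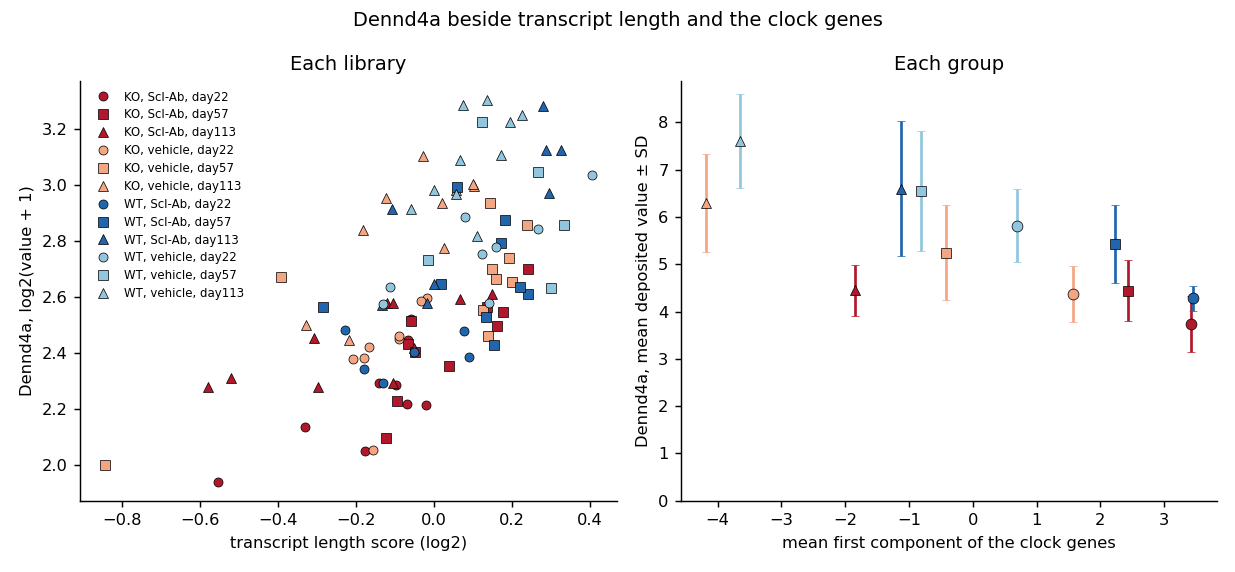
Left, Dennd4a as log2(value + 1) against the transcript length score (log2) in each library; right, the group mean ± SD of its deposited value against the group mean of the first component of the 15 clock genes, which is high where Arntl is low. Colours are treatment and genotype and shapes are days. Dennd4a is higher in libraries with a higher length score (r = 0.62 within groups), and its group means fall between 3.74 at the high end of the clock component and 7.60 near its low end.

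Of the 7 annotated genes within 100 kb of Dennd4a, 3 were tested (Rab11a, Ints14 and Hacd3). None of the 3 passed in a Scl-Ab contrast of a single day and genotype, where 0% to 26.9% of all genes passed. Hacd3, an enzyme of fatty acid elongation, was higher in ApoE-KO arches by 0.10 on day22 and 0.09 on day57, and Rab11a, a GTPase of recycling endosomes, was higher by 0.15 on day113, the opposite direction to Dennd4a.

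Kazn (ENSMUSG00000040606.13, chr4:142102390-142239401, minus strand, GRCm38) has 9 annotated transcripts, the longest of 5725 bases, and had the lowest median of the 3 genes on the deposited per-length scale. It reached a value of 1 in 26 of the libraries, against 87 for Gm6793 and every one for Dennd4a, and no library was at 0 for any of them. At such levels the offset of 1 makes its log2 differences smaller than the ratios of its values. In ApoE-KO arches on day22 its lowest, median and highest values were 0.807, 1.24 and 1.54 with Scl-Ab, against 0.536, 0.770 and 1.21 with vehicle, and 5 of 9 Scl-Ab libraries stood above the highest vehicle library. In WT arches on day22 they were 0.518, 0.639 and 0.935 with Scl-Ab, against 0.473, 0.770 and 1.40 with vehicle. The WT range with Scl-Ab lay inside that with vehicle.

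On day57 the ApoE-KO arches had 0.630, 0.957 and 1.04 with Scl-Ab, against 0.418, 0.786 and 0.858 with vehicle, with 7 of 10 Scl-Ab libraries above the highest vehicle library. The WT arches had 0.507, 0.647 and 1.01 with Scl-Ab, and the 5 vehicle libraries had 1.11, 0.616, 0.976, 1.26 and 0.791. On day113 the ApoE-KO arches had 0.712, 0.994 and 1.23 with Scl-Ab, against 0.680, 0.965 and 1.47 with vehicle, and the WT arches had 0.62, 0.71 and 0.91 with Scl-Ab, against 0.616, 0.971 and 1.37 with vehicle. The ratio of means, Scl-Ab over vehicle, was thus 1.49, 1.26 and 0.962 on day22, day57 and day113 in ApoE-KO arches and 0.756, 0.737 and 0.750 in WT arches. On the log2 scale the ApoE-KO minus WT difference of the Scl-Ab differences was 0.44 ± 0.11, 0.34 ± 0.11 and 0.16 ± 0.10 on the 3 days, with a mean of 0.32 ± 0.06. These values chose Kazn. The mean stayed past the threshold in 9 of 10 other settings and in 83 of 83 fits without 1 library. These refits reuse the values that chose Kazn and are no independent check of it. By the mean over the days, 0.0137% of genes tested passed, namely Kazn and Ephb2, a receptor for ephrin-B ligands, at 0.51 ± 0.09. The next genes, which missed the threshold, were Mlx (-0.24) and Tbpl1 (-0.22). Within groups Kazn and Ephb2 had r = 0.32 over all libraries.

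As its values in all 12 groups entered its choice, the other differences of Kazn are descriptions too. ApoE-KO minus WT, over both treatments, was 0.17 ± 0.06 on day22, -0.01 ± 0.06 on day57, with an interval of -0.12 to 0.10, and 0.10 ± 0.05 on day113. On day22 this mean takes in the ApoE-KO Scl-Ab group (1.17 ± 0.24), the highest of the 12, while vehicle arches had 0.79 ± 0.22 in ApoE-KO and 0.87 ± 0.30 in WT mice. Within treatments the ApoE-KO minus WT difference of day22 was 0.39 with Scl-Ab and -0.06 with vehicle. On day57 it was 0.16 with Scl-Ab and -0.18 with vehicle, so the mean of -0.01 there takes in values of opposite sign. On day113 it was 0.18 with Scl-Ab and 0.02 with vehicle. Scl-Ab minus vehicle, over both genotypes and all days, was -0.02 ± 0.03, with an interval of -0.08 to 0.04. Against day22, day57 stood at -0.03 and day113 at 0.05. No 2 neighbours in the order of the 12 group means were apart by more than the larger SD.

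Kazrin is best known from keratinocytes and other epithelia, so their markers were read beside it. The keratinocyte markers Krt5 and Krt14 both had means under 0.1 in 11 of the 12 groups. The exception was the group with the highest Kazn, the ApoE-KO Scl-Ab arches of day22. There replicate 9 had 2.02 for Krt5, 1.69 for Epcam and 6.48 for Krt8, with a summed value of 14 over the 5 keratinocyte and epithelial markers, against 2.05 to 6.14 in the other 8 libraries. Kazn in that library was 1.40, against 1.54 in replicate 6, which had 0 for Krt5, 0.15 for Krt14 and 0.33 for Krt8. Replicates 2 and 8 had 2.12 and 2.17 for Krt8, with 1.03 and 1.32 for Kazn. The part of epithelial carry-over in these values was not tested. Without replicate 9 the Scl-Ab difference of Kazn in ApoE-KO arches on day22 was 0.26, the difference between genotypes 0.42, and the ApoE-KO minus WT difference 0.16, all as descriptions. Within groups the summed markers had r = 0.10 with Kazn over all libraries. That sum was mostly Krt10 in nearly every library, such as 2.36 of 2.36 in ApoE-KO vehicle replicate 4 of day57. This r therefore says little about Krt5, Krt8, Krt14 or Epcam.

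Of 21 listed binding partners and desmosome genes 15 were tested. With Scl-Ab 4 of them were higher and 0 lower in ApoE-KO arches on day22, and 1 was higher and 3 lower in WT arches, against 5.51% and 3.63% of all genes in ApoE-KO and 13.7% and 13.2% in WT arches. Ppl, which encodes the partner periplakin, was higher with Scl-Ab in ApoE-KO arches on day22 by 0.50 (limma adjusted p = 0.00414) and over both genotypes and all days by 0.28 (adjusted p = 5.02e-06; 29.7% of all genes passed in either direction and 13.0% as higher). Arvcf, a catenin of the p120 family that binds kazrin, was higher with Scl-Ab by 0.38 in ApoE-KO arches on day22 (limma adjusted p = 0.00811). Jup, the plakoglobin of desmosomes and adherens junctions, was higher with Scl-Ab in both genotypes on day22, by 0.32 in ApoE-KO (limma adjusted p = 0.0256) and 0.42 in WT arches (adjusted p = 0.00304). Dsp, encoding the desmosome protein desmoplakin, was lower with Scl-Ab in WT arches on day22, at -0.57 (limma adjusted p = 0.00327). By genotype, 3 of the 15 were higher and 8 lower in ApoE-KO arches on day113 (3068 and 4901 of the 14637 genes tested), with Pkp1 at 1.25 and Pkp4 at -0.65. In the mean difference of Scl-Ab differences over the days, the measure that chose Kazn, 0 of the 15 passed. As 0.0137% of all genes passed in it, that count says little about the list. On day22 Dsp alone of the list passed for this difference, at 0.84 (limma adjusted p = 0.00571), higher in ApoE-KO arches. There 6.85% of all genes passed and were higher, and 0 genes passed with the libraries of the day alone.

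Within groups the genes most like Kazn included Sned1 (r = 0.47 over all libraries), Gas7 (0.46), Gfra1 (0.44) and Camk1d (0.44), and the least alike were Rpap2 (-0.48), Asb2 (-0.43) and Mob2 (-0.38). Over the 12 group means they were Eya4 (0.87), Tmem127 (0.85), Nav1 (0.83), Rtkn (0.81) and Gm12751 (0.81). Of 7 annotated genes within 100 kb of Kazn, 3 were tested. Tmem51, a membrane protein gene, was higher in ApoE-KO arches by 0.60, 0.74 and 0.59 on the 3 days, and 4930455G09Rik by 0.37, 0.68 and 0.69. Fhad1 was lower with Scl-Ab in WT arches on day22, at -0.42 (limma adjusted p = 0.00958; 13.2% of all genes passed and were lower). Its Scl-Ab difference was higher in ApoE-KO than in WT arches on that day by 0.50 (limma adjusted p = 0.0283; 6.85% of all genes passed and were higher). In that second contrast 0 genes passed with the libraries of the day alone. Tmem51 was higher with Scl-Ab in ApoE-KO arches on day22 by 0.34 (limma adjusted p = 0.0496; 5.51% of all genes passed and were higher).

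Promoters were read from RefSeq (GRCm38.p6), from 250 bases before to 50 after a start, for 1 start of Dennd4a (chr9:64810761-64811060) and 2 of Kazn (chr4:142239352-142239651 and chr4:142215409-142215708). They were searched on both strands for the E-box CACGTG of clock factors, the D-box TTATGTAA or TTACGTAA of Dbp and its relatives, the glucocorticoid receptor motif ACANNNTGT and the TCF motif CTTTGAT. The 1 match was a CACGTG in the first Kazn window, beginning at base 19 from the start, and 7.15% of all 32851 promoters hold that motif. The others are held by 0.938%, 0.119%, 6.85% and 3.73% of promoters in the order named, and these letters are not in the Dennd4a window or the other Kazn window. Such a match is a run of letters, and binding was not measured. The Dennd4a window ends before the GENCODE M21 start of the gene given above (chr9:64811340), so the bases around that start were not searched.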

How the data were processed

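Values of the fpkm type, in a column the labels do not define further, are those the authors deposited, 1 per gene symbol and library. The submitters' processing notes name GRCm38 as the build and DESeq2 1.10.1 among the tools. Sources used here do not give the aligner, the counter, the treatment of reads that match several places or the use of strand. Sequencing depth in reads is unknown, so no counting error is given.

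The labels gave the groups. Tested genes reached 1 in no fewer than 5 libraries. In limma 3.58.1 under R 4.3.3, with robust, trended moderation, each of the 12 groups had its own mean of log2(value + 1), with Benjamini-Hochberg adjustment over all 14637 genes, and checked on simulated data. Intervals are 95% intervals of limma.

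The 3 genes, the gene lists and the tests were chosen with earlier results of these data known. Differences that use values behind the choice of a gene (day113 for Gm6793 and Dennd4a, all groups for Kazn) are described without a test. Counts of settings or fits in which such a difference stayed past the threshold reuse those values and are no test of it. Named in each comparison were the 3 genes, Dennd4b, Dennd4c, Rab10, Ppl, Arvcf, Jup, up to 4 passing members of a list by adjusted p, tested neighbours within 100 kb, and, for likeness, the 5 highest and 3 lowest r within groups and the 5 highest over group means. One gene this rule names is not reported here. The copies of Hnrnpa3, the pseudogene list, the transcript length score, Npas2, Ephb2 and the library with Krt5 were chosen after their values were seen. Transcripts were compared with blastn 2.17.0 and Biopython 1.88 on GENCODE M21. Alternatives were another pseudocount, no filter or a filter of 5, other scalings, fits of a day alone, array weights, a replicate block, covariates and leaving out libraries.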

Additional observations from a re-analysis of the deposited data

Results flagged for a closer look

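Gm6793 in WT vehicle replicate 1 of day57 stood apart at 2.80, with the nearest of the other 4 libraries at 1.67. Dennd4a in ApoE-KO vehicle replicate 2 of day22 stood apart at 3.16, with the nearest of the other 7 at 4.20. The gaps were 0.741 and 0.553 of the group ranges, above Dixon's critical values for groups of those sizes. Chance flags about 1 in 20 groups, and 36 were looked at. The Scl-Ab difference of Kazn was higher in ApoE-KO than in WT arches by a mean of 0.32 over the 3 days, the value for which the gene was chosen.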

How the results depend on the processing

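Other settings changed how many genes passed for Scl-Ab on day113 more than the size of the differences. In ApoE-KO arches, where 2 genes passed, 0 did with a pseudocount of 0.1, a filter of 5, median-of-ratios scaling, quantile normalization, the replicate block or the clock components, 1 with that day's libraries alone, array weights or the length score, 5 with no filter and 9 with scores of carried-over tissue. In WT arches, where 1 passed, 0 did with a pseudocount of 0.1, a filter of 5, quantile normalization, the replicate block or the clock components, 3 with carry-over scores or the run of animal numbers, 5 with no filter, 6 with the length score and 110 with array weights. For the mean difference between genotypes, where 2 passed, the counts were 0 with a filter of 5, 1 with carry-over scores and 2564 with array weights. Leaving out 1 library gave 0 to 86 genes in ApoE-KO arches (86 without Scl-Ab replicate 5), 0 to 5 in WT arches and 2 to 6 for the mean difference (6 without ApoE-KO Scl-Ab replicate 9 of day22).

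Gm6793 lost its WT call without any 1 of the Scl-Ab replicates 1, 2, 4 and 5 and the vehicle replicates 1, 3, 5, 7 and 10, with values of -0.63 to -0.57 over all 18 fits. Its ApoE-KO call was kept without Scl-Ab replicate 5, 8 or 10 alone (-0.59 to -0.50 over all 20 libraries), and that of Dennd4a without any 1 of Scl-Ab replicates 5 and 10 and vehicle replicates 2 and 8 (-0.46 to -0.39). Why these calls were lost was not tested.

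With the clock components, Dennd4a gave -0.081 for Scl-Ab in WT arches on day22, genotype differences of -0.086 on day22 and -0.12 on day57, and 0.081 for day57 against day22, none past the threshold, and a described 0.10 for day113 against day22. With carry-over scores it gave -0.25 for Scl-Ab in WT arches on day22 and 0.11 for day57, and with the length score -0.15 for genotype on day22, likewise not past it. With array weights its Scl-Ab difference in ApoE-KO arches on day57 passed at -0.27. For Scl-Ab in WT arches on day22, 0 of all genes tested passed with the clock components.

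Kazn's described genotype differences were -0.024 on day113 with quantile normalization, the opposite sign to its 0.10, and 0.33 on day22 with a pseudocount of 0.1. Without 1 library they ran from 0.14 to 0.19 on day22 and from 0.083 to 0.12 on day113. With a pseudocount of 0.1 Gm6793 was described at 0.81 for day113 against day22, and Kazn's other described values were 0.53, 0.31 (ApoE-KO, day22 and day57), -0.32, -0.38 and -0.36 (WT, day22, day57 and day113) for Scl-Ab, and 0.85, 0.69, 0.32 and a mean of 0.62 between genotypes. Only the carry-over scores ended its call on the mean (0.29).

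No result of the 3 genes changed direction past the threshold. Same-numbered libraries correlated at -0.40 to 0.79. The share best matched with their own number ran from 1 of 10 in ApoE-KO to 3 of 5 in WT arches, both on day57. Whether they share more than a number was not tested. The replicate block gave -0.61 for Gm6793 in WT arches on day113, -0.41 for Dennd4a in ApoE-KO arches on day113 and 0.31 for the mean difference of Kazn. A filter of 5 leaves no value for Gm6793 and Kazn, and libraries of ApoE-KO day57 were not left out in turn.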
